A study of Arabidopsis thaliana with 13 samples.

Results

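SIAMESE (SIM) and the SIAMESE-RELATED (SMR) genes of Arabidopsis thaliana encode small inhibitors of cyclin-dependent kinases, and transcripts of 5 of them, SIM, SMR2, SMR3, SMR6 and SMR8, were followed in root tips of plants in which the retinoblastoma homologue RBR is silenced. The genes were chosen as those of the family list named SIM, SMR2, SMR3, SMR6 or SMR8 that have a probe set assigned to 1 gene only, which gave 5 probe sets of 22746 tested. SIM (At5g04470) carries its name in the array annotation, and SMR6 is At5g40460 in the study. The names SMR2 for At1g08180, SMR3 for At5g02420 and SMR8 for At1g10690 come from the family list compiled for this work and not from the array annotation.

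Cyclin-dependent kinases, bound to a cyclin, drive plant cells through DNA replication and mitosis, and RBR holds back the entry into replication until these kinases phosphorylate it. Inhibitors of the SIM and SMR family bind the kinase complexes and lower their activity. SIM is known from trichomes, where it keeps cells from dividing and lets them go through endocycles, rounds of DNA replication without mitosis.

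Transcript levels came from 13 ATH1 arrays (Affymetrix), 6 of them of Col-0 and 7 of rRBr. Col-0 is the wild type, with 2 arrays of seedlings of 4 das, 1 of 6 das and 3 of 10 das. The rRBr line has the Col-0 background and carries an RNAi construct against RBR under the RCH1 promoter, which acts locally in the root meristem, and it has 2 arrays each for the ages of 4 and 6 das and 3 for 10 das. The abbreviation das is given as days after stratification in the sample labels, and as days after sowing in the study's text. Seedlings of both lines were germinated together on plates, the tips were dissected by hand, and each array holds a pool of tips, so that fewer cells that express a gene and less RNA per cell cannot be told apart.

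The values are log2 RMA values, and a value of one probe set cannot be set against that of another, since probes differ in how strongly they bind. A gene was called changed where limma gave a Benjamini-Hochberg adjusted p under 0.01 over all 22746 probe sets and a fold of at least 1.4. Array medians lay between 5.96 and 6.06. Genes were taken from a table that assigns no gene to 8730 of the 22746 probe sets, so that a gene missing here may still be on the array. RBR is among the genes without an assigned probe set in that table, and its level was not analysed here. RCH1, the receptor kinase gene of the meristem whose promoter drives the construct, ranged from 8.79 to 9.47 in Col-0 and from 8.92 to 9.36 in rRBr (difference -0.02, limma adjusted p = 0.977). A set of 3 arrays stood apart from the other 10 in the root hair expansin genes EXPA7 and EXPA18, whose mean was 8.80 to 8.89 on replicate 1 of Col-0 at 10 das and on replicate 1 of rRBr at 6 and at 10 das, against 4.69 to 7.41 on the others. Results are therefore also given without these 3 arrays where they move.

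Over all days, SMR6 was higher in rRBr than in Col-0, SMR8 was higher in rRBr on every array but lay just outside the adjusted p limit, and SIM, SMR2 and SMR3 were not called. SMR6, 1 of the 5 genes, was thus called higher, beside 0.343% of all probe sets called higher and 0.0747% called lower. SMR6 and SMR8 had no overlap between the 7 rRBr and the 6 Col-0 arrays, which held for 0.936% of all probe sets in this direction. The median difference of the 5 genes was 0.43, which is the value of SMR3. SIM and SMR2 lay below it at 0.0081 and 0.04, and SMR6 and SMR8 above it at 0.65 and 0.70. The median of all probe sets was -0.0095. At 10 das SMR8 was the gene called, with a level 1.94-fold higher in rRBr.

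**Figure D1:**
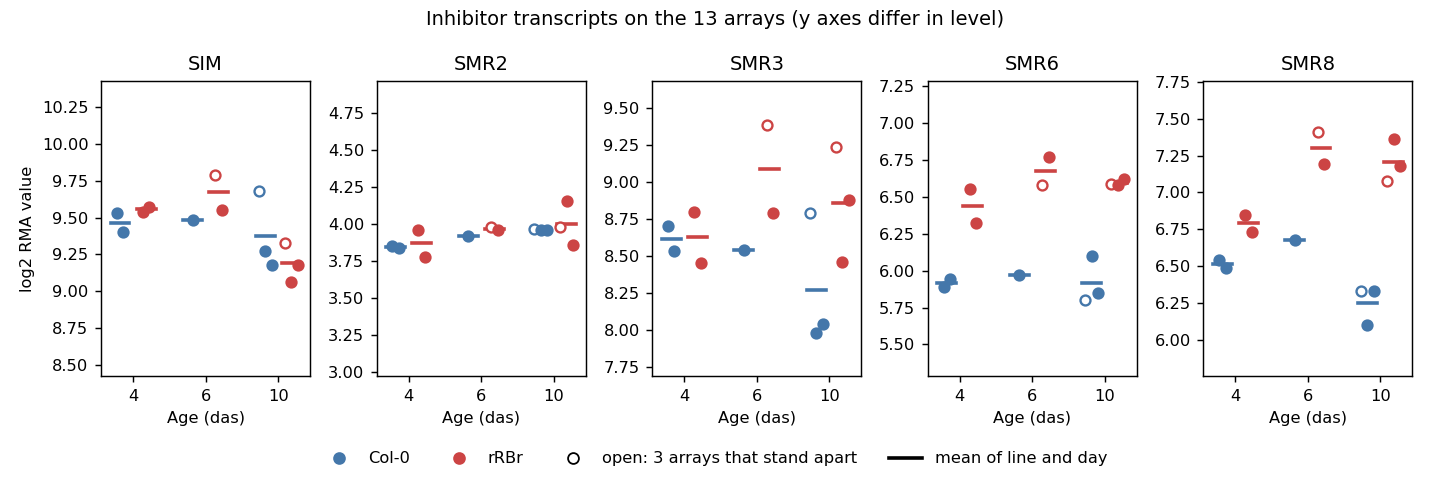
Log2 RMA value (y axis) of SIM, SMR2, SMR3, SMR6 and SMR8 on each array by age in das (x axis), with Col-0 in blue, rRBr in red, a bar for the mean of each line and day, and open circles for the 3 arrays with high root hair genes; every y axis spans the same range of 2 log2 units, at another level. The rRBr circles of SMR6 (6.32 to 6.77) and SMR8 (6.73 to 7.41) lie above all Col-0 circles (5.80 to 6.10 and 6.10 to 6.68), while those of SIM and SMR2 lie among them.

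SMR6 encodes a member of the family whose own role is less well described than that of SIM. In Col-0, its value was 5.89 and 5.94 at 4 das, 5.97 at 6 das, and 5.80, 6.10 and 5.85 at 10 das. In rRBr, it was 6.55 and 6.32 for 4 das, 6.58 and 6.77 for 6 das, and 6.59, 6.58 and 6.62 for 10 das. All rRBr arrays were thus above all Col-0 arrays, with 0.22 log2 units between the lowest rRBr and the highest Col-0 array. The difference over all days was 0.65 ± 0.07 (SE; 95% interval 0.50 to 0.79), a 1.57-fold higher level in rRBr (limma, adjusted p = 0.00028).

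SMR6 lay above Col-0 at each age. Its difference was 0.52 at 4 das (95% interval 0.25 to 0.79), 0.71 at 6 das (0.37 to 1.04) and 0.68 at 10 das (0.46 to 0.90). The change of the difference from 4 to 10 das was 0.16 (95% interval -0.19 to 0.51; limma, adjusted p = 1), so that a trend with age was not detectable. None of the 3 passed the adjusted p limit in the fit by line and day (limma, adjusted p = 0.750, 0.472 and 0.0166), in which each day rests on 3 to 6 arrays and the single Col-0 array of 6 das is assumed to vary like the others. The rRBr arrays were above the Col-0 arrays of the same day on each of the 3 days, as for 1.72% of all probe sets. From 4 to 10 das, SMR6 differed by 0.0017 in Col-0 (95% interval -0.25 to 0.25) and by 0.16 in rRBr (-0.09 to 0.41), and neither was called, beside 0.0308% of all probe sets called in Col-0 and 0% in rRBr. Without the 3 arrays with high root hair genes, the difference over all days was 0.62 and was called (limma, adjusted p = 0.00361).

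SMR8 had a narrower gap between the lines on the arrays of 4 das than on those of 10 das, but the change between these ages was not called (limma, adjusted p = 0.898). In Col-0, its value was 6.54 and 6.49 at 4 das, 6.68 at 6 das, and 6.33, 6.10 and 6.33 at 10 das. In rRBr, it was 6.85 and 6.73 for 4 das, 7.41 and 7.19 for 6 das, and 7.08, 7.36 and 7.18 for 10 das. The lines did not overlap over all arrays, but only 0.05 log2 units lay between the lowest rRBr array, at 4 das, and the highest Col-0 array, at 6 das. The difference over all days was 0.70 ± 0.12 (SE; 95% interval 0.44 to 0.96), or 1.63-fold, with a limma adjusted p of 0.0104, just above the limit of 0.01. It passed with replicate 1 or replicate 2 of rRBr at 4 das, the lowest arrays of that line, left out (0.75 and 0.77; limma, adjusted p = 0.00912 and 0.00495), and was farther from the limit without the 3 arrays with high root hair genes (0.63; limma, adjusted p = 0.0551).

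Within days, the difference of SMR8 was 0.28 at 4 das (95% interval -0.0071 to 0.56), 0.62 at 6 das (0.27 to 0.97) and 0.95 at 10 das (0.72 to 1.18). SMR8 passed the test at 10 das, where it was the only one of the 5 genes called (limma, adjusted p = 0.00389), beside 0.251% of all probe sets called higher on that day. At 4 and 6 das the limma adjusted p was 1 and 0.756, and 0.0044% of all probe sets were called on each of these days. The call at 10 das is close to the limit: leaving out any one of 9 of the 13 arrays ended it, with the difference between 0.88 and 0.99 and the limma adjusted p up to 0.0200. The 4 arrays whose removal kept it were Col-0 6 das replicate 1, both rRBr 6 das arrays and rRBr 10 das replicate 1. In a fit of the 10 das arrays alone the difference was the same and the limma adjusted p was 0.0619, and without the 3 arrays with high root hair genes the difference was 1.06 and was called (limma, adjusted p = 0.00891).

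From 4 to 10 das the SMR8 arrays lay apart in opposite directions in the 2 lines, without a call. In Col-0, the 3 arrays of 10 das were below both arrays of 4 das (difference -0.26, 95% interval -0.52 to -0.0041), and in rRBr the 3 arrays of 10 das were above both arrays of 4 das (difference 0.42, 0.16 to 0.67). This combination was seen for 0.532% of all probe sets. Neither change was called (limma, adjusted p = 1 and 0.439), and neither was the change of the difference from 4 to 10 das, 0.68 ± 0.16 (SE; 95% interval 0.31 to 1.04; limma, adjusted p = 0.898). Of the 22746 probe sets, 1 (0.0044%) passed that test, at an adjusted p under 0.05.

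**Figure D2:**
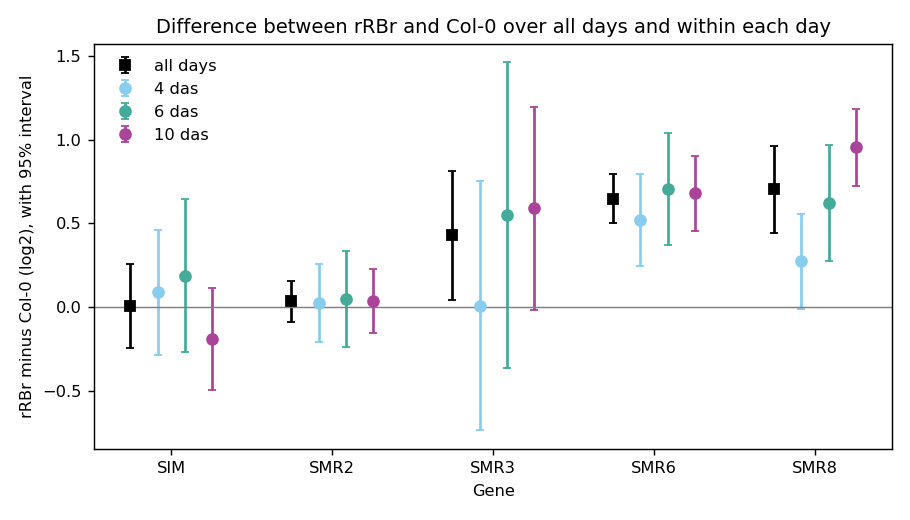
Difference between rRBr and Col-0 (y axis, log2) for each of the 5 genes (x axis), over all days (squares) and at 4, 6 and 10 das (circles), with 95% intervals from limma. The squares of SMR6 (0.65) and SMR8 (0.70) stand clear of the zero line, and the circles of SMR8 go from 0.28 at 4 das to 0.95 at 10 das.

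SMR3 had a higher mean in rRBr, but its arrays scattered widely and the lines overlapped. In Col-0, its value was 8.70 and 8.53 at 4 das, 8.54 at 6 das, and 8.79, 7.98 and 8.04 at 10 das. In rRBr, it was 8.80 and 8.45 for 4 das, 9.39 and 8.79 for 6 das, and 9.24, 8.46 and 8.88 for 10 das. The highest values of each line and day from 6 das on, where there was more than 1 array, were those of the 3 arrays with high root hair genes. The difference over all days was 0.43 ± 0.18 (SE; 95% interval 0.04 to 0.81) and was not called (limma, adjusted p = 0.408).

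By day, SMR3 differed by 0.01 at 4 das, 0.55 at 6 das and 0.59 at 10 das, with 95% intervals that all held 0 when the arrays were not paired. Without the 3 arrays, the difference was 0.32 over all days (limma, adjusted p = 0.480), 0.25 at 6 das and 0.66 at 10 das, and none was called. Between arrays of the same replicate number, rRBr was higher at 10 das in all 3 pairs, by 0.45, 0.48 and 0.84. The share of all probe sets with this order was not computed. At 4 das the pairs ran both ways, 0.10 and -0.08. With replicate number as a block, which gives arrays of the same number a common shift at all ages, the error was smaller. The difference was then 0.59 ± 0.14 (SE) at 10 das, 0.01 ± 0.17 at 4 das and 0.47 ± 0.13 over all days. None was called (limma, adjusted p = 0.117, 0.998 and 0.109). At 6 das it was 0.82, also with no call. That value rests on the common shift. On replicate 1 of 6 das, the mean of EXPA7 and EXPA18 was 6.00 in Col-0 and 8.89 in rRBr, so that these genes did not share one.

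SIM, the founding member of the family, did not differ between the lines beyond its spread. In Col-0, its value was 9.53 and 9.40 at 4 das, 9.48 at 6 das, and 9.68, 9.27 and 9.18 at 10 das. In rRBr, it was 9.54 and 9.57 for 4 das, 9.79 and 9.55 for 6 das, and 9.33, 9.06 and 9.18 for 10 das. These ranges overlapped for most of their width, and the difference over all days was 0.0081 ± 0.12 (SE; 95% interval -0.24 to 0.26; limma, adjusted p = 0.992). Within days the difference ran both ways, 0.09 at 4 das (95% interval -0.28 to 0.46), 0.19 at 6 das (-0.27 to 0.65) and -0.19 at 10 das (-0.49 to 0.12), with no call. The direction of the value over all days changed with the scaling, to -0.016 with each array centred on its median.

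SIM was at its lowest in rRBr at 10 das. The 3 rRBr arrays of 10 das were below both of 4 das, an order seen for 11.3% of all probe sets, and the difference between these ages was -0.37 in rRBr (95% interval -0.71 to -0.02) and -0.09 in Col-0 (-0.43 to 0.25), neither of them called (limma, adjusted p = 0.911 and 1). Without the 3 arrays with high root hair genes these were -0.44 and -0.24, again with no call. The gene model of SIM overlaps that of At5g04475 in RefSeq, to which the table used assigns no probe set of its own.

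SMR2 lay near the bottom of every array. Its value was 3.85 and 3.84 at 4 das, 3.92 at 6 das, and 3.97, 3.96 and 3.96 at 10 das in Col-0. In rRBr, it was 3.96 and 3.78 for 4 das, 3.98 and 3.96 for 6 das, and 3.98, 4.16 and 3.86 for 10 das. All 13 values were below the lower quartile of their array, which was 4.15 to 4.24, and the values of both lines overlapped. The difference over all days was 0.04 ± 0.06 (SE; 95% interval -0.08 to 0.16; limma, adjusted p = 0.883). A difference of SMR2 was not detectable at this level.

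SIM and SMR3 were highest, within their line and day, on the 3 arrays with high root hair genes, and SMR6 and SMR8 were not. SIM was higher on each of the 3 arrays with high EXPA7 and EXPA18 than on the other arrays of the same line and day, by 0.46 on the Col-0 array, by 0.24 on the rRBr array of 6 das and by 0.21 on that of 10 das. SMR3 was higher there by 0.78, 0.60 and 0.57. Being highest on all 3 arrays was common, and held for 15.1% of all probe sets. SMR6 was lower on these arrays by 0.18, 0.19 and 0.01 in the same order, and SMR8 was 0.12 and 0.22 higher on the first and second and 0.19 lower on the third. EXPA7 and EXPA18 act in root hair cells, which arise behind the meristem, and both were between 4.37 and 8.88 in Col-0 and between 5.26 and 9.03 in rRBr, with no call between the lines (limma, adjusted p = 0.956 and 0.927). The part of root hair tissue in the values of SIM and SMR3 was not tested.

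**Figure D3:**
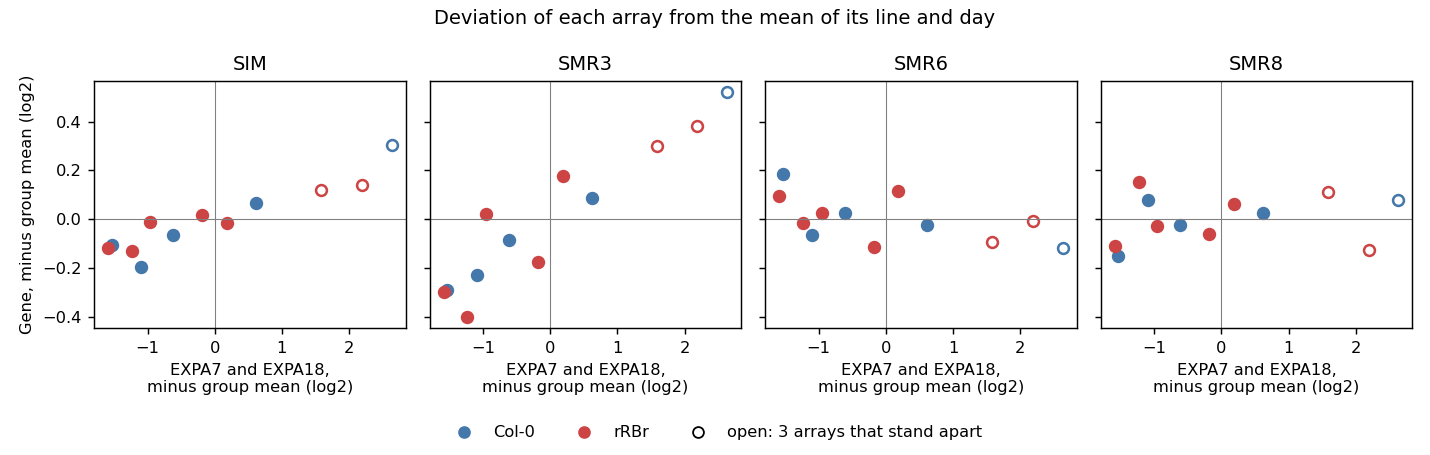
Deviation of SIM, SMR3, SMR6 and SMR8 from the mean of their line and day (y axis, log2) against that of the mean of EXPA7 and EXPA18 (x axis, log2) on the 12 arrays of groups with more than 1 array. The open circles, the 3 arrays with high root hair genes, are at the upper right for SIM and SMR3. They lie below the zero line for SMR6 (-0.117 to -0.0067) and on both sides of it for SMR8 (-0.127 to 0.11).

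The probe sets of 1 gene whose values went most like those of each inhibitor over the 13 arrays were listed by Pearson's r, as a description, since all points share the arrays and the difference between the lines. For SMR6 these were At2g37470 (r = 0.97), At3g53650 (r = 0.95) and At5g05180 (r = 0.94). With the mean of each line and day removed, r was 0.40, 0.53 and 0.32. All 3 were called higher in rRBr, by 0.56, 0.90 and 2.50 on the log2 scale (limma, adjusted p = 0.000149, 0.000142 and 2.54e-05). These calls follow in part from the choice of the genes, since SMR6 itself separates the lines. At2g37470 and At3g53650 are annotated as genes of the histone superfamily. At5g05180, a gene of unknown function, ranged from 4.23 to 5.36 in Col-0 and from 7.09 to 7.77 in rRBr.

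For SMR8 the nearest were At1g62422 (r = 0.95), At1g06760 (r = 0.94), which encodes the linker histone H1.1, and At2g38820 (r = 0.92). With the mean of each line and day removed, r was 0.49, 0.81 and 0.23. At1g06760 ranged from 10.52 to 10.77 in Col-0 and from 11.16 to 11.57 in rRBr, and was called higher by 0.60 (limma, adjusted p = 0.000524). At1g62422 and At2g38820 differed by 0.50 and 0.63 and were not called (limma, adjusted p = 0.0211 and 0.0455).

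For SIM the nearest were At2g42040 (r = 0.90), At2g47830 and At3g57790 (r = 0.87 for both), for SMR3 At3g23870 (r = 0.96), At5g13240 and At1g27290 (r = 0.94 for both), and for SMR2 MAMI, a membrane-associated protein gene (r = 0.86), At3g14780 (r = 0.84) and At3g42100 (r = 0.83). None of these 9 genes was called between the lines, with differences from -0.14 for At3g57790 to 0.49 for At3g23870.

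The genes next to SMR6 on the chromosome did not pass the test. At5g40450, on one side, differed by 0.25 ± 0.57 (SE; limma, adjusted p = 0.930), and At5g40470, on the other, by 0.32 ± 0.12 (SE; limma, adjusted p = 0.360). Of the other inhibitors, SIM, SMR2 and SMR3 have 1 neighbour each with an assigned probe set of its own, and these differed by 0.24 (At5g04460), 0.02 (At1g08170) and 0.20 (At5g02430) with no call. The neighbours of SMR8 are not analysed here.

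The family list holds 14 loci, of which 9 are assigned a probe set of their own in the table used, so that 4 more could be set beside the 5 genes. The other 5 loci are not analysed here, and the counts say nothing of them. The 4 further loci are given by locus only, without a family name. SMR6 was the 1 of these 9 probe sets called over all days, and the median difference of the 9 was 0.04.

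At2g28870 was the only one of these 4 whose rRBr arrays all lay above the Col-0 arrays at 10 das. In Col-0, its value was 5.75 and 5.68 at 4 das, 6.02 at 6 das, and 5.49, 6.19 and 5.88 at 10 das. In rRBr, it was 5.73 and 6.06 for 4 das, 6.58 and 6.04 for 6 das, and 6.96, 6.53 and 7.23 for 10 das. The lines overlapped over all days but not at 10 das, where rRBr exceeded Col-0 by 1.05 (95% interval 0.53 to 1.57), with no call (limma, adjusted p = 0.0998). The difference over all days was 0.61 (limma, adjusted p = 0.30). Between 4 and 10 das At2g28870 differed by 1.01 in rRBr (95% interval 0.43 to 1.59; limma, adjusted p = 0.392), and 5.28% of all probe sets were higher in rRBr at 10 das without overlap.

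**Figure D4:**
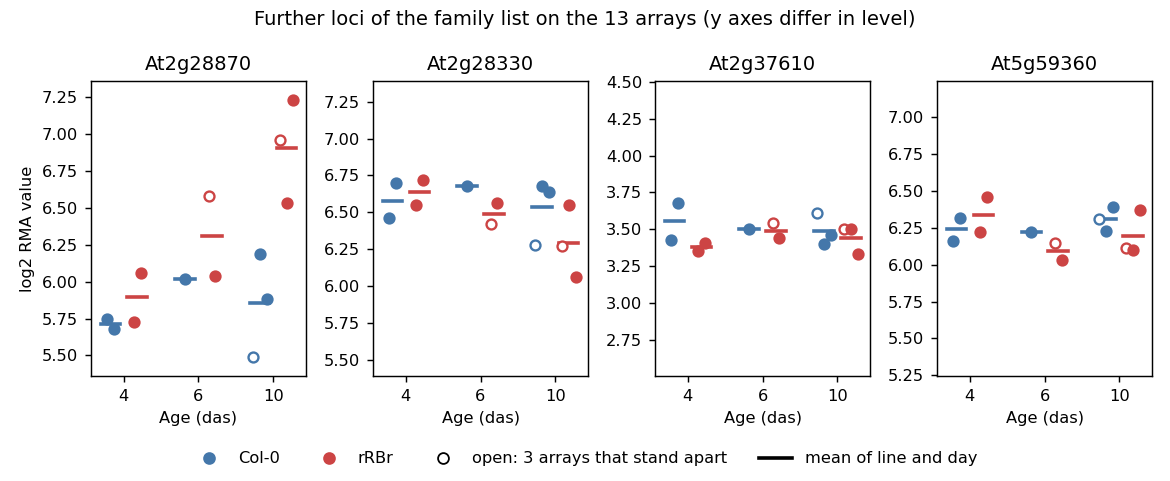
Log2 RMA value (y axis) of the 4 further loci of the family list on each array by age in das (x axis), with Col-0 in blue, rRBr in red, a bar for the mean of each line and day, and open circles for the 3 arrays with high root hair genes; every y axis spans 2 log2 units. The rRBr circles of At2g28870 reach 6.53 to 7.23 at 10 das, above the Col-0 circles of that day (5.49 to 6.19), and those of the other loci overlap with Col-0 over all days.

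The other 3 loci overlapped between the lines over all days, and their differences were -0.13 for At2g28330, -0.075 for At2g37610 and -0.066 for At5g59360, none of them called. The loci around the inhibitors in the cell cycle could hardly be described: of the lists of KIP-RELATED inhibitors (7 loci), cyclin-dependent kinases and their regulators (12), D-type cyclins (10), A-type and B-type cyclins (19), RBR, E2F and DP factors (9) and DNA damage genes (14), none was assigned a probe set of its own in the table used, and they are not analysed here. Of 15 endocycle regulators, 1 had one: BIN4, a subunit of a DNA topoisomerase complex needed for endocycles, ranged from 6.74 to 7.07 in Col-0 and from 6.74 to 7.11 in rRBr, and was not called (difference 0.0050; limma, adjusted p = 0.992). RCA, a marker of green tissue, lay between 4.39 and 5.53 on all arrays and was not called either (difference 0.10, limma, adjusted p = 0.914).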

How the data were processed

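RNA of dissected root tips was hybridised to 13 ATH1 arrays. The authors deposited log2 RMA values, made with RMA of the affy package per the labels (background correction, quantile normalization and a summary per probe set, replicates not pooled); versions are not given in the sources used here. Arrays give no counts, so that their number limits the precision. The tests ran on these values in limma 3.58.1 (R 4.3.3), without a filter on low values. Of 22810 probe sets, 64 controls were left out. Among the rest, 13513 had 1 gene in the array annotation, 503 several and 8730 none. Of the 13513, 13436 matched RefSeq (TAIR10.1).

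Col-0 and rRBr were compared over all days in a fit of 2 groups, and within days, between ages and in the change of the difference from 4 to 10 das in a fit of 6 groups of line and day (lmFit and eBayes, Benjamini-Hochberg over 22746 probe sets, two-sided). Labels call replicates biological, and the study states that the germination was repeated. Samples of the same number deviated together (correlation of deviations from group means 0.79, 0.60 and 0.63 at 10 das and 0.18 for both pairs at 4 das). At 10 das, replicates 2 and 3 of unlike lines also did so (0.41 and 0.56), and replicate 1 went against the others (-0.60 to -0.72). Replicate 1 of 10 das has high root hair genes in both lines. The 3 deviations of a group cancel out, so that the values of 10 das are not independent of each other. The 4 das values are equal by construction, with 2 arrays per group, and 6 das has a single Col-0 array. The labels do not say that a number marks a shared experiment. The numbers were taken to pair arrays, and the pairing was run as an alternative only. Genes named beside the 5 inhibitors are list genes called over all days or, in lists with no call, the one with the largest difference, plus the 3 probe sets nearest to each inhibitor by Pearson's r, and EXPA7 and EXPA18. Other alternatives were array weights, a trended robust variance, 2 rescalings, a filter at a mean of 5, the looser limit of 0.05, day as a factor, and leaving out arrays. The fit was tested on simulated data. The 5 genes and all lists were chosen with earlier results of these data known.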

Additional observations from a re-analysis of the deposited data

Results flagged for a closer look

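SMR8 was lower at 10 than at 4 das on all Col-0 arrays and higher on all rRBr arrays, and the change of the rRBr minus Col-0 difference between these ages was 0.68 (log2). The opposite order of the arrays in the 2 lines brought it here. The test of the change itself gave a limma adjusted p of 0.898.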

How the results depend on the processing

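SMR6 over all days kept its direction and its call in every alternative run, and the pairing of replicate numbers as a block changed no call of the 5 genes (SMR6 0.64, limma adjusted p = 0.00117; SMR8 0.71, adjusted p = 0.0179). SMR8 over all days lay on the limit, and was called in 6 of 12 alternatives, single arrays left out not counted. In the other 6 it was not called, with a limma adjusted p up to 0.0625. These were the replicate block, array weights (adjusted p = 0.0166), day as a factor, and block and day (0.0242). The last 2 left out the 6 das arrays (0.0625) or the 3 arrays with high root hair genes (0.0551). The limit of 0.05 kept the main fit, with adjusted p = 0.0104. SMR8 passed with a trended robust variance (0.70, limma adjusted p = 0.00918), quantile normalization run again (0.69, adjusted p = 0.00858), arrays centred on their medians (0.68, adjusted p = 0.00986), the filter at a mean of 5 (0.70, adjusted p = 0.00799), the limit of 0.05 (0.70) and the average of the within-day differences (0.62, adjusted p = 0.00696), and the number of the 5 genes called was then 2. At 10 das it was 2 with array weights and with the limit of 0.05, which added SMR6 (0.71 and 0.68), and 0 with the 10 das arrays alone (SMR8 0.95, limma adjusted p = 0.0619). Leaving out each array in turn gave 1 to 2 genes over all days and 0 to 1 at 10 das, with SMR6 between 0.62 and 0.69, SMR8 between 0.64 and 0.77 over all days and between 0.88 and 1.02 at 10 das, and At1g62422 between 0.46 and 0.56. The difference of SIM over all days changed sign with centring (-0.016), day as a factor (-0.02), block and day (-0.0024), without the 6 das arrays (-0.076) and over single arrays left out (-0.052 to 0.070), and its change from 4 to 6 das was 0.10. Other sign changes were within the spread: SMR2 at 4 das (-0.0027 with quantile normalization, -0.065 to 0.12 over arrays left out), at 10 das (-0.043 to 0.11) and in the change (-0.00013 with array weights, -0.030 with centring, -0.078 to 0.10), SMR3 at 4 das (-0.17 to 0.19), SMR6 in Col-0 between ages (-0.027 with array weights, -0.09 to 0.06) and SIM there (-0.24 to 0.01). At1g06760 lost its call without the 6 das arrays (0.61, limma adjusted p = 0.0176), and At1g62422 and At2g38820 passed the looser limit (0.50 and 0.63). With 1 to 3 arrays per line and day, differences within a day are known only to the intervals given.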
